A study of Mus musculus with 22 samples.

Results

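Interferon-stimulated genes are the genes that cells switch on after an interferon binds its receptor. Type I interferons act through the kinases Jak1 and Tyk2, and a factor that holds Stat2 and Irf9 then binds a promoter element called the interferon-stimulated response element (ISRE). Genes that answer interferon gamma carry a second element, the gamma-activated site (GAS). The products sense viral RNA, block steps of viral replication, present antigen or limit the response itself, and in the brain microglia, endothelium, astrocytes and neurons can all express members of the group.

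The genes described here are 35 such genes, listed by name and not picked by their values. Of the 35, 33 had a probe set that the platform annotation gives to that gene alone, out of 18704 genes with such a probe set. Isg15 and Igtp lie only on probe sets shared with another gene, so no level is given for either. Counts below are of the 33, called the members, and none was left out for a low level.

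RNA of the hypothalamus was measured on 22 Affymetrix arrays from lean C57BL/6J males aged 8 weeks that ate normal chow over 2 weeks, with no transgene or mutation given for any group. The celastrol groups, which received the plant triterpenoid celastrol dissolved in dimethyl sulfoxide (DMSO) into the peritoneum, held 4 arrays after 6 h and 3 each after 1 day and after 4 days. The labels place 250 µg per kg beside the 6 h celastrol group and a volume of 100 µl beside the later ones, so the sources used here leave the dose at 1 and 4 days unstated. The DMSO groups held 4 arrays at each time. The labels give 25 µl of vehicle per day for the celastrol and the DMSO groups alike.

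The titles call the arrays biological replicates, and the sources used here do not say whether an array held RNA of 1 mouse. All values are log2 intensities after robust multi-array averaging (RMA) by the authors, and a change is the celastrol mean minus the DMSO mean of the same time on that scale. Calls use limma, with the Benjamini-Hochberg adjusted p over the 18704 genes held under 0.05, in a linear model with 6 group means that pools the spread of all arrays. An intensity depends on its probes, so levels of different genes are not set against each other.

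Array medians over all probe sets lay between 8.58 and 8.66, and an array's mean correlation with its own group lay between 0.9945 and 0.9977. Of 8 hypothalamic markers, 6 (Oxt, Avp, Hcrt, Pmch, Trh and Sst) were above the upper quartile of every array, and Sim1 and Nkx2-1 were above it in 0 arrays. The summed level of 8 pituitary markers, a neighbouring tissue, reached from 8211 to 10070 in celastrol arrays and from 8456 to 18030 in DMSO arrays at 6 h. At 1 day it was 8600 to 10120 in celastrol arrays and 7814 to 11720 in DMSO arrays, and at 4 days 8500 to 14820 in celastrol arrays and 8545 to 10050 in DMSO arrays. Its part in the members' differences was not tested. In a bulk sample, fewer cells of a type and less RNA per cell cannot be told apart.

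Promoter windows of the listed genes were searched for the core letters of the ISRE and of the GAS. The windows are RefSeq sequences of GRCm38.p6 (250 bases before to 50 after an annotated start site), and 29 of the 35 genes had one. The ISRE core was searched on both strands as GAAA, any 2 bases and GAAA, and the GAS core as TTC, any 3 bases and GAA, which is its own reverse complement. A gene counted if any of its windows held a match. An ISRE core was found for 17 of the 29 genes (58.6%), against 1079 of 27025 genes (3.99%). A GAS core was found for 8 of the 29 (27.6%), against 2582 of 27025 genes (9.55%). A GAS match overlapped an ISRE match in Bst2 and in Ifitm3, and ISRE matches overlapped each other in Bst2, Gbp3, Irgm1 and Isg15. A match describes letters and is not a measured binding site.

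The following stretches belong to members whose values are given in full below, and all read 5′ to 3′ on the + strand, which is the strand of each gene. Capitals mark the match, and an ISRE core on the other strand reads TTTC, 2 bases and TTTC here. The Slfn5 stretch is chr11:82951937-82951966 and the Ifit1 stretch is chr19:34640765-34640833. The Ifit3 stretches are chr19:34583363-34583392 and chr19:34583397-34583426. The Irf8 stretch, chr8:120736167-120736233, holds 2 GAS cores and no ISRE core. The start sites behind the Slfn5 and Ifit3 windows lie inside the annotated gene, and those of Ifit1 and Irf8 lie at its start.
Slfn5, ISRE core: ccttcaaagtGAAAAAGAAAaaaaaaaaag
Ifit1, ISRE cores: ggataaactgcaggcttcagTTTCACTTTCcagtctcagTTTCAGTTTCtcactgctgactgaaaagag
Ifit3, far ISRE core: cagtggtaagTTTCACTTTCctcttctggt
Ifit3, near ISRE core: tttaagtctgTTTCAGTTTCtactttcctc
Irf8, GAS cores: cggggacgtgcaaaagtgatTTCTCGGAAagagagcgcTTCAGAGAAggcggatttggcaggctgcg

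**Figure D1:**
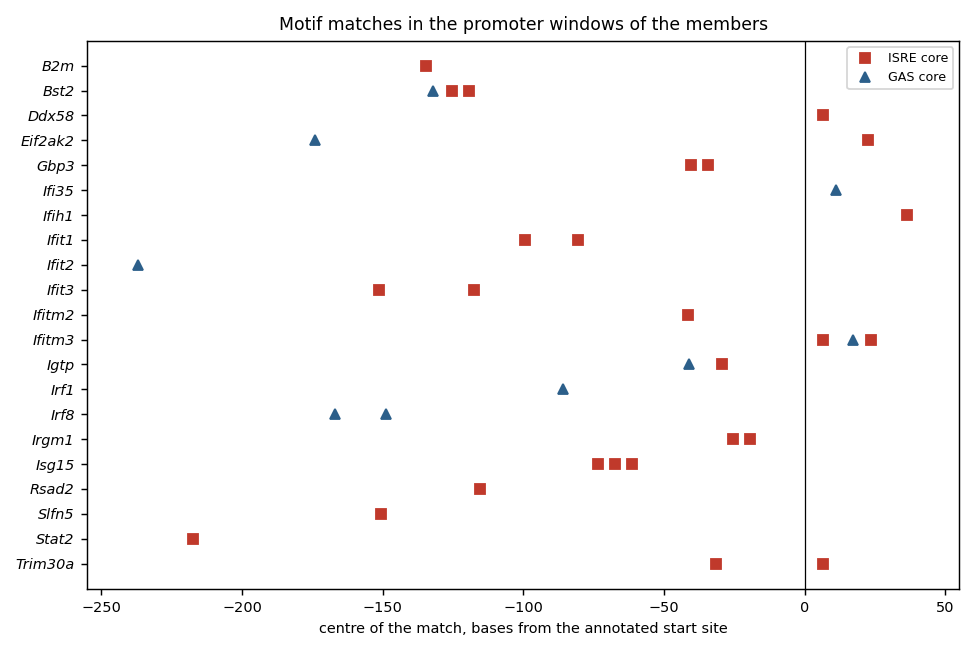
Positions of ISRE core matches (squares) and GAS core matches (triangles) in the promoter windows of the listed genes with a match, as the centre of the match in bases from the annotated start site. ISRE cores were found for 17 of 29 genes with a window and GAS cores for 8 of 29, on both sides of the start site.

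Most members were dim on this array. In 22 of 33 the probe set stayed below the array median on every array, and 9 were above it on at least 3 arrays. Mx2, a dynamin-like antiviral GTPase, and Slfn2, a schlafen, were below the lower quartile of all 22 arrays. Irf9, Ifit3, Ifitm2, Ifitm3, Ifi27, B2m and Tapbp were above the median on all 22. The values carry no call of detection, so a dim probe set can hold mostly background.

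No member passed the test at a single time, and only the schlafen gene Slfn5 passed on the average of the 3 times. A member that did not pass is not shown to be unchanged. At 6 h, 0 of 33 members passed the test, against 0% of all genes, and the members' median change was 0.025 against 0.0033 for all genes. At 1 day 0 members passed, against 0.00535% of all genes, and the median was -0.00091 against 0.0012. At 4 days 0 members passed, against 0.016%, and the median was 0.013 against 0.0097. These medians moved with single arrays. Leaving out 1 array gave 0.0201 to 0.0782 at 6 h (highest without DMSO 6 h replicate 3), -0.0504 to 0.00934 at 1 day (lowest without DMSO 1 day replicate 4), and -0.0331 to 0.0243 at 4 days (lowest without celastrol 4 days replicate 2), so the sign at 1 day and at 4 days depends on the arrays kept. On the average of the 3 times, with equal weight, 1 member (Slfn5) passed and all genes gave 7 (0.0374%).

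Changes above 0 were seen in 24 of 33 members at 6 h (52% of all genes), 16 at 1 day (50.6%), 18 at 4 days (56.1%) and 18 on the average (54.7%). Around their group means, pairs of members had a mean correlation of 0.131 across arrays, against 0.0268 for all gene pairs. Counts of members above 0, here and below, are therefore not counts of independent genes. At 6 h, 9 of 10 astrocyte markers were above 0 as well, with a summed level of 27170 to 30070 in celastrol arrays and 26030 to 27310 in DMSO arrays, and their part in the members' signs was not tested. At an unadjusted p under 0.05, 1 member was higher and 0 lower at 6 h, against 2.36% and 1.65% of all genes. At 1 day 1 was higher and 1 lower, against 2.41% and 3.1%. At 4 days 3 were higher and 0 lower, against 2.75% and 1.27%. On the average 4 were higher and 2 lower, against 2.35% and 1.23%. When 1 array was left out, the count of higher members ran from 0 (without celastrol 6 h replicate 3 or DMSO 6 h replicate 4) to 6 (without celastrol 6 h replicate 4) at 6 h. On the average it ran from 1 (without celastrol 4 days replicate 2) to 6 (without celastrol 6 h replicate 4). The count of lower members at 4 days reached 3 without celastrol 4 days replicate 2 or DMSO 4 days replicate 3.

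The groups did not overlap for 1 member at 6 h (Slfn5, higher; 1.53% of all genes higher and 1.2% lower). At 1 day they did not overlap for 1 higher member (Slfn5; 2.15%) and 1 lower (Ifih1; 3.06%). At 4 days they did not overlap for 3 higher members (Slfn5, Irf8 and Irf9; 4.03%) and 0 lower (2.02%). Most of these shares are therefore of the size that all genes show, with 3 of 33 (9.09%) at 4 days the largest.

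The 95% intervals, each for a single gene, limit what change in intensity could have gone unseen. Since a dim probe set can hold mostly background, they do not bound the change in RNA of dim members. At 6 h the interval lay within 0.5 of 0 for 32 of 33 members, with Ifitm3 outside. That bound is a change in intensity of less than 1.41-fold. At 1 day this held for 33 of 33. At 4 days it held for 30, with Ifit1, Ifitm3 and Slfn5 outside.

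**Figure D2:**
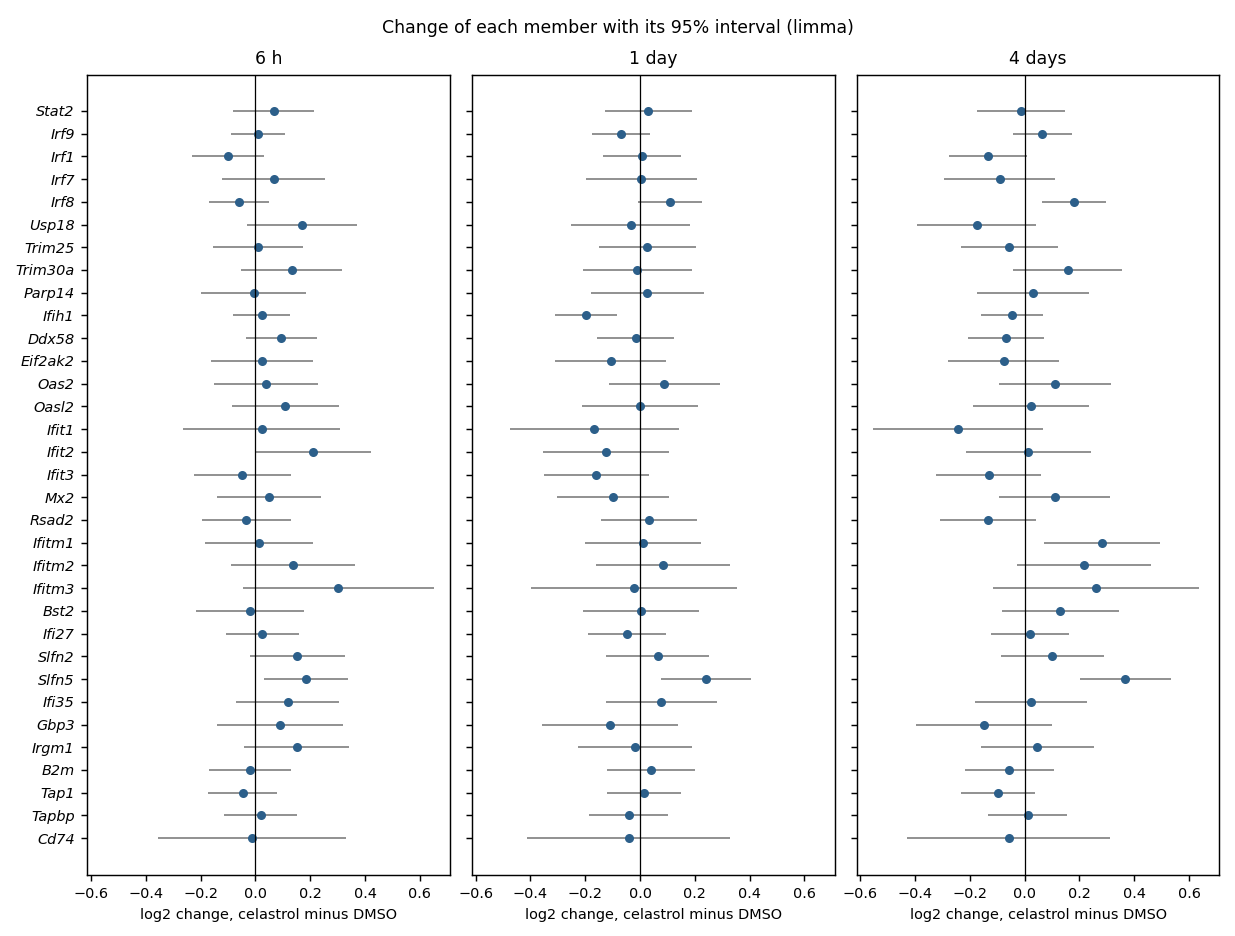
Log2 change (celastrol minus DMSO) of each of the 33 members at 6 h, 1 day and 4 days, as points with the 95% interval from limma; members run by role from transcription factors at the top to antigen presentation at the bottom. Slfn5 lies at 0.37 at 4 days, the highest member change of that time, and most intervals cross 0.

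**Figure D3:**
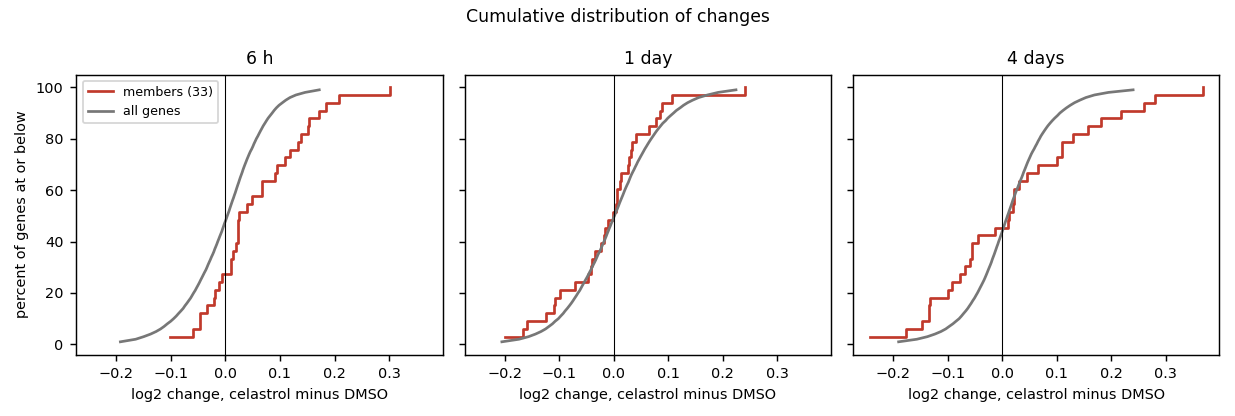
Cumulative percent of genes at or below a given log2 change (celastrol minus DMSO) for the 33 members and, between its 1st and 99th percentile, for all genes. The members' medians are 0.025, -0.00091 and 0.013 at 6 h, 1 day and 4 days, and the member curve reaches 0.37 at 4 days.

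Slfn5 encodes a schlafen family protein that acts in the nucleus and is known in human cells as an interferon-induced regulator of transcription. At 6 h it had log2 intensities of 7.40, 7.47, 7.71 and 7.47 in celastrol arrays, against 7.39, 7.28, 7.37 and 7.28 in DMSO arrays. At 1 day it had 7.67, 7.58 and 7.42 in celastrol arrays, against 7.38, 7.33, 7.22 and 7.33 in DMSO arrays. At 4 days it had 7.53, 7.67 and 7.47 in celastrol arrays, against 7.18, 7.17, 7.04 and 7.36 in DMSO arrays. At each time the lowest celastrol array stood above the highest DMSO array, narrowly so at 6 h.

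Slfn5 rose by 0.26 ± 0.044 (SE) on the average of the 3 times, or 1.201-fold, with an adjusted p of 0.0219 in limma, and 10 of 10 celastrol arrays exceeded the mean of the time-matched DMSO arrays. The 3 times gave 0.18, 0.24 and 0.37, and none of them passed on its own (adjusted p = 0.998, 0.8728 and 0.1529 in limma). Two-sided exact permutation of the labels within a time gave 0.0286 at 6 h and at 1 day, which is the smallest possible there, and 0.0571 at 4 days. The same exact test on the average gave 1.17e-05, the smallest that its 85750 arrangements allow, unadjusted for the 33 members. The change did not differ between 4 days and 6 h beyond its error (0.18, 95% interval -0.041 to 0.41). Celastrol group means were 7.51, 7.55 and 7.56 at 6 h, 1 day and 4 days, and DMSO group means were 7.33, 7.31 and 7.19. In DMSO arrays Slfn5 thus differed by -0.14 between 4 days and 6 h, without passing the test.

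The call of Slfn5 was lost in limma under 8 of the 32 alternatives that tested it, where its adjusted p reached up to 0.0884 and its change over all 32 stayed between 0.225 and 0.287. Leaving out 1 array ended it for DMSO 6 h replicate 2 (0.0508) and replicate 4 (0.0517), celastrol 1 day replicate 1 (0.0778), and celastrol 4 days replicate 1 (0.0562) and replicate 2 (0.0762), as adjusted p. The Slfn5 probe set was below the array median in all 22 arrays, so a filter on level would not have tested it.

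The summed level of microglial markers overlapped between treatments at 6 h and at 1 day. Over 15 markers it was 9677 to 10370 in celastrol arrays and 9510 to 9810 in DMSO arrays at 6 h, and 9590 to 9659 in celastrol arrays against 9353 to 9934 in DMSO arrays at 1 day. At 4 days it was 10900 to 11370 in celastrol arrays and 9211 to 10080 in DMSO arrays, without overlap. Their part in the Slfn5 result at 4 days was not tested. Aif1 and Gpr34, of that list, were below the lower quartile of all 22 arrays.

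The other schlafens were measured beside it. Slfn2, which T cells need for quiescence, had 7.01, 6.88, 6.84 and 6.89 in celastrol arrays and 6.92, 6.63, 6.75 and 6.70 in DMSO arrays at 6 h, a difference of 0.15 ± 0.084 (SE). These groups overlapped through DMSO replicate 1. Slfn4, not a member, had 6.72, 6.74 and 6.81 in celastrol arrays and 6.44, 6.49, 6.46 and 6.22 in DMSO arrays at 4 days, where its change was 0.35 (adjusted p = 0.7718 in limma). The Slfn4 groups did not overlap at 4 days (4.03% of all genes in that direction), and its changes at 6 h and 1 day were -0.12 and 0.00017. Slfn1, Slfn3, Slfn8 and Slfn9 had changes between -0.094 and 0.14 across the 3 times.

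Ifi35, a leucine zipper protein induced by interferon, had 7.77, 8.01, 7.91 and 7.93 in celastrol arrays against 7.83, 7.69, 7.64 and 7.97 in DMSO arrays at 6 h. The groups overlapped, and the difference was 0.12 ± 0.090 (SE).

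**Figure D4:**
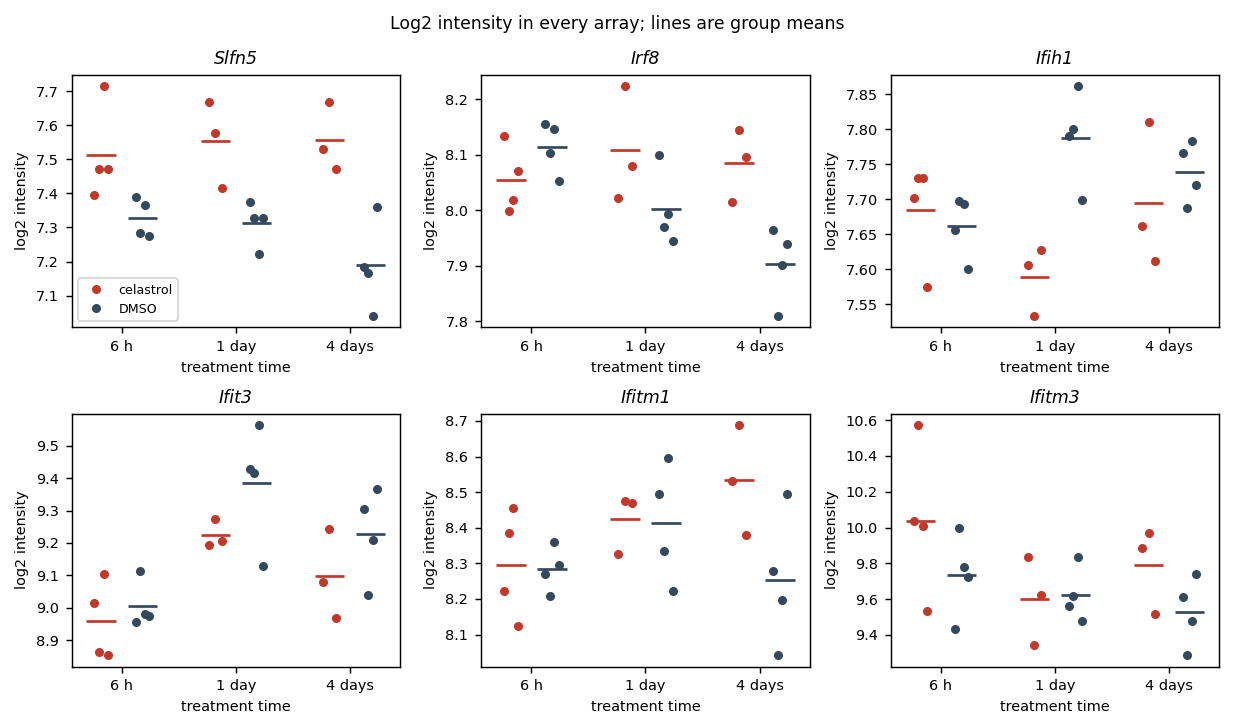
Log2 intensity of Slfn5, Irf8, Ifih1, Ifit3, Ifitm1 and Ifitm3 in every array by treatment time, celastrol left of DMSO, with lines at the group means. Slfn5 is higher in all celastrol arrays than in any DMSO array of its time, and Ifih1 at 1 day and Irf8 at 4 days also show groups that do not overlap.

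Among the 5 transcription factors 0 passed, with changes between -0.10 and 0.067 at 6 h, between -0.071 and 0.11 at 1 day, and between -0.13 and 0.18 at 4 days. Irf8, which myeloid cells including microglia need for their identity, had 8.01, 8.14 and 8.10 in celastrol arrays and 7.96, 7.81, 7.90 and 7.94 in DMSO arrays at 4 days. The groups did not overlap, and the difference was 0.18 ± 0.056 (SE; adjusted p = 0.7566 in limma). At 6 h Irf8 had 8.13, 8.00, 8.02 and 8.07 in celastrol arrays and 8.16, 8.10, 8.15 and 8.05 in DMSO arrays, a difference of -0.059.

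Irf8 differed between the vehicle groups of 4 days and 6 h as well, without passing the test. In DMSO arrays it had 7.96, 7.81, 7.90 and 7.94 at 4 days, all below the 8.16, 8.10, 8.15 and 8.05 at 6 h, a difference of -0.21 ± 0.052 (SE; adjusted p = 0.1795 in limma). Celastrol arrays stood at 8.01 to 8.14 at 4 days and at 8.00 to 8.13 at 6 h, so the celastrol groups overlapped between these times. The celastrol effect was higher by 0.24 at 4 days than at 6 h (adjusted p = 0.9992 in limma).

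Of 15 measured microglial markers, 12 were above 0 at 4 days (56.1% of all genes) with a median change of 0.14, and 7 were higher at an unadjusted p under 0.05 (2.75% of all genes). Itgam, an integrin of microglia and other myeloid cells, rose by 0.32 (adjusted p = 0.0463 in limma), and C1qc, a chain of complement C1q, was higher by 0.37 (adjusted p = 0.148). At 1 day 6 of 15 were above 0 (50.6% of all genes), with Irf8 higher by 0.11. Of 8 markers of border macrophages 7 were above 0 at 4 days, though Mrc1, Cd163, Pf4 and Ms4a7 were below the lower quartile of all arrays. The part of these cells in the Irf8 difference was not tested.

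Stat2 and Irf9 are subunits of the factor that binds the ISRE. Stat2 had 8.76, 8.71, 8.78 and 8.69 in celastrol arrays and 8.71, 8.60, 8.78 and 8.58 in DMSO arrays at 6 h, a difference of 0.067 within the spread. Irf9 had 8.86, 8.69 and 8.73 in celastrol arrays and 8.82, 8.81, 8.90 and 8.79 in DMSO arrays at 1 day, a difference of -0.071. At 4 days Irf9 had 8.74, 8.77 and 8.77 in celastrol arrays against 8.73, 8.68, 8.67 and 8.70 in DMSO arrays, which did not overlap but differed by 0.065 (unadjusted p = 0.2168 in limma).

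Irf1, an early factor of the interferon gamma response, had 7.83, 7.88 and 7.71 in celastrol arrays and 7.87, 8.13, 7.96 and 7.81 in DMSO arrays at 4 days, a difference of -0.13 ± 0.068 (SE). A second Irf1 probe set was higher by 0.066 at 4 days and by 0.073 at 6 h, where the first differed by -0.10. The sign of the Irf1 difference at 6 h and 4 days therefore depends on the probe set. Irf7, which amplifies interferon alpha production, had changes of 0.067, 0.0051 and -0.091 at 6 h, 1 day and 4 days.

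The 4 measured regulators of the Isg15 system and of signalling also gave 0 calls. Usp18, which removes Isg15 from proteins and dampens the type I receptor, had 8.03, 7.83, 7.96 and 7.82 in celastrol arrays and 7.82, 7.70, 7.71 and 7.73 in DMSO arrays at 6 h. The difference was 0.17 ± 0.096 (SE), and the lowest celastrol array lay level with the highest DMSO array. At 4 days Usp18 differed by -0.18, with 7.73, 7.86 and 7.69 in celastrol arrays against 8.08, 7.85, 7.57 and 8.24 in DMSO arrays. The effect at 4 days minus that at 6 h was -0.35 (adjusted p = 0.9992 in limma).

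Trim30a, a tripartite motif protein of mouse innate immunity, had 7.85, 8.00 and 7.90 in celastrol arrays and 7.57, 7.90, 7.74 and 7.84 in DMSO arrays at 4 days, a difference of 0.16 ± 0.096 (SE). Trim25, the ubiquitin ligase that acts on the RNA sensor Ddx58, had 7.75, 7.71 and 7.80 in celastrol arrays and 7.79, 7.70, 7.79 and 7.95 in DMSO arrays. Parp14, an ADP-ribosyltransferase, had 7.16, 7.56 and 7.39 in celastrol arrays and 7.29, 7.29, 7.36 and 7.43 in DMSO arrays at that time. All 3 pairs of groups overlapped.

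Of the 10 RNA sensors and antiviral enzymes, 8 were above 0 at 6 h, 2 at 1 day and 4 at 4 days. Over all genes these shares were 52%, 50.6% and 56.1%. The median changes of the 10 were 0.031, -0.10 and -0.056, and 0 passed at any time. Ifih1, the sensor of long double-stranded RNA also called Mda5, had 7.61, 7.53 and 7.63 in celastrol arrays and 7.79, 7.80, 7.86 and 7.70 in DMSO arrays at 1 day. All celastrol arrays lay below all DMSO arrays, with a difference of -0.20 ± 0.054 (SE; adjusted p = 0.6748 in limma).

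Ifih1 also differed between vehicle groups, without passing the test. DMSO arrays had 7.79, 7.80, 7.86 and 7.70 at 1 day and 7.66, 7.70, 7.69 and 7.60 at 6 h, which did not overlap, with a difference of 0.13 ± 0.050 (SE; adjusted p = 0.4588 in limma). At 6 h the celastrol arrays had 7.70, 7.73, 7.73 and 7.57, on both sides of the vehicle's range. Ddx58, the sensor also known as RIG-I, had changes of 0.095, -0.017 and -0.068 at the 3 times.

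The Ifit proteins bind foreign RNA and block its translation. Ifit3 had 9.19, 9.27 and 9.21 in celastrol arrays and 9.43, 9.42, 9.56 and 9.13 in DMSO arrays at 1 day, a difference of -0.16 ± 0.092 (SE). Celastrol arrays fell inside the DMSO range because DMSO replicate 4 was low. Ifit3 differed by -0.047 at 6 h and by -0.13 at 4 days.

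Ifit2 had 8.34, 7.96, 8.39 and 8.20 in celastrol arrays and 7.84, 8.11, 8.17 and 7.93 in DMSO arrays at 6 h, a difference of 0.21 ± 0.10 (SE). Celastrol replicate 2 lay inside the DMSO range, and at 1 day and 4 days Ifit2 differed by -0.12 and 0.013. Ifit1 had 8.11, 8.22 and 7.70 in celastrol arrays and 8.15, 8.14, 8.01 and 8.71 in DMSO arrays at 4 days, a difference of -0.24 ± 0.15 (SE) that rests on 1 low celastrol array and 1 high DMSO array.

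The remaining antiviral enzymes stayed closer to 0. Eif2ak2, the kinase that stops translation on double-stranded RNA, had changes of 0.023, -0.11 and -0.077. Oas2, which makes the activator of RNase L, and its relative Oasl2 had changes between -0.00091 and 0.11. Mx2 ranged from -0.098 to 0.11 and Rsad2, also called viperin, from -0.13 to 0.033.

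The 5 membrane restriction proteins were above 0 in 4 cases at 6 h, 3 at 1 day and 5 at 4 days. Over all genes these shares were 52%, 50.6% and 56.1%. The median change of the 5 was 0.22 at 4 days, and 0 passed. Ifitm1, an interferon-induced membrane protein that hinders viral entry, had 8.53, 8.69 and 8.38 in celastrol arrays and 8.28, 8.04, 8.20 and 8.49 in DMSO arrays at 4 days. The difference was 0.28 ± 0.10 (SE; adjusted p = 1 in limma), and DMSO replicate 4 lay among the celastrol arrays. The second Ifitm1 probe set was higher by 0.14.

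Ifitm2 had 10.08, 10.12 and 9.79 in celastrol arrays and 9.85, 9.58, 9.70 and 9.99 in DMSO arrays at 4 days, a difference of 0.22 ± 0.12 (SE). Its other 2 probe sets were higher by 0.20 and 0.27 at 4 days, and at 6 h the 3 gave 0.14, 0.17 and -0.069. Ifitm3 had 10.04, 10.57, 10.01 and 9.53 in celastrol arrays and 9.43, 9.999, 9.78 and 9.73 in DMSO arrays at 6 h, a difference of 0.30 ± 0.17 (SE). Celastrol replicate 4 lay inside the DMSO range, and the change of Ifitm3 was -0.024 at 1 day and 0.26 at 4 days. The Ifitm genes are near-identical neighbours in places, so their probe sets may share signal.

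Bst2, also called tetherin, which holds budding virus at the membrane, had 8.06, 7.98 and 8.08 in celastrol arrays and 8.06, 7.91, 7.92 and 7.76 in DMSO arrays at 4 days, a difference of 0.13 ± 0.10 (SE). Ifi27, a small hydrophobic protein, had changes of 0.025, -0.048 and 0.020. Endothelial markers, from a cell type known to express Ifitm genes, were above 0 in 10 of 13 cases at 4 days (56.1% of all genes). Their summed level was 8794 to 9293 in celastrol arrays and 8281 to 9257 in DMSO arrays at that time, and none was below the lower quartile of all arrays. The part of endothelium in these differences was not tested.

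The 2 measured GTPases of interferon gamma responses, which act on vacuoles that hold pathogens, overlapped between treatments. Irgm1 had 8.55, 8.42, 8.30 and 8.25 in celastrol arrays and 8.12, 8.30, 8.13 and 8.37 in DMSO arrays at 6 h, a difference of 0.15 ± 0.092 (SE). Gbp3 had 7.27, 7.72 and 7.13 in celastrol arrays and 7.44, 7.60, 7.42 and 7.63 in DMSO arrays at 4 days, a difference of -0.15 ± 0.12 (SE).

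Antigen presentation genes lay between -0.047 and 0.020 at 6 h, -0.042 and 0.040 at 1 day, and -0.099 and 0.010 at 4 days. B2m, the light chain of class I molecules, had 12.68, 12.68 and 12.38 in celastrol arrays and 12.63, 12.67, 12.56 and 12.69 in DMSO arrays at 4 days. Tap1, a subunit of the peptide transporter, had 7.89, 7.72 and 7.91 in celastrol arrays and 7.99, 7.90, 7.89 and 7.97 in DMSO arrays, with 1 celastrol array clearly below the DMSO range and a difference of -0.099 ± 0.065 (SE).

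Tapbp, which loads peptide onto class I molecules, had 9.80, 9.73 and 9.73 in celastrol arrays and 9.83, 9.73, 9.81 and 9.81 in DMSO arrays at 1 day. Cd74, the invariant chain of class II molecules, had 7.31, 7.67 and 7.32 in celastrol arrays and 7.56, 7.29, 7.12 and 8.00 in DMSO arrays at 4 days. The DMSO arrays alone spanned more than the celastrol arrays, and the Cd74 difference was -0.058 ± 0.18 (SE).

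The vehicle groups were also compared with each other between times, and 0 members passed in any of these comparisons. At 1 day against 6 h, 25 of 33 members were higher in DMSO arrays (55.2% of all genes), and 0 passed (0% of all genes). At an unadjusted p under 0.05, 5 were higher (6.58% of all genes) and 1 lower (2.57%), and for 2 members (Ifih1 and Ifit3; 3.19%) the later group lay wholly above. The members' median difference was 0.070 against 0.010 for all genes.

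Ifit3 led that comparison. It had 9.43, 9.42, 9.56 and 9.13 in DMSO arrays at 1 day and 8.96, 9.11, 8.98 and 8.97 at 6 h, without overlap. The difference was 0.38 ± 0.085 (SE; adjusted p = 0.2353 in limma). Ifit2 had 8.46, 8.24, 8.46 and 8.02 in DMSO arrays at 1 day and 7.84, 8.11, 8.17 and 7.93 at 6 h, which overlapped, with a difference of 0.28 (adjusted p = 0.4249 in limma).

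In DMSO arrays at 4 days against 6 h, 0 members passed (0.00535% of all genes). At an unadjusted p under 0.05, 3 were higher (Stat2, Ddx58 and Ifit3; 6.32%) and 1 lower (Irf8; 5.22%), and Irf8 was the 1 member wholly below (2.58%). At 4 days against 1 day, 0 passed (0.00535%), 2 were lower at an unadjusted p under 0.05 (Irf9 and Bst2; 5.45%), and Irf9 lay wholly below (3.69%). Since each celastrol change is set against the DMSO group of its own time, these groups are shared with the comparisons above.

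The celastrol effect was compared between times as a difference of differences. For 4 days minus 6 h, 1 day minus 6 h and 4 days minus 1 day, 0 members passed (0% of all genes in each). At an unadjusted p under 0.05 there were 2 members (Irf8 and Usp18; 3.73% of all genes), 3 members (Irf8, Ifih1 and Ifit2; 6.61%) and 0 members (5.54%), in that order.

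Of 18 interferon ligands listed, 14 were measured, and 0 passed at any time. At 6 h, 1 day and 4 days, 4, 10 and 5 were above 0 (52%, 50.6% and 56.1% of all genes). The smallest p was that of Ifna13, an interferon alpha, which had 5.28, 5.45 and 5.74 in celastrol arrays and 5.79, 5.69, 5.68 and 5.83 in DMSO arrays at 4 days. These groups overlapped, and the difference was -0.26 (adjusted p = 0.9999 in limma). Ifna12 was higher by 0.21 at 1 day, Ifna4 by 0.14 at 6 h, and Ifng, the interferon gamma gene, differed by -0.12 at 4 days.

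The list of receptors and signalling genes had 19 with a value here, and 0 passed. Of the 19, 17 were above 0 at 6 h, 9 at 1 day and 10 at 4 days. Over all genes these shares were 52%, 50.6% and 56.1%. Jak1 had 11.61, 11.59, 11.64 and 11.63 in celastrol arrays and 11.51, 11.38, 11.45 and 11.57 in DMSO arrays at 6 h. All celastrol arrays stood above all DMSO arrays, as for 1.53% of all genes at 6 h. The mean difference was 0.14 ± 0.044 (SE; adjusted p = 0.998 in limma). Irf3, which starts interferon production, was higher by 0.12 at 6 h, and Tyk2 and Ifnlr1, the interferon lambda receptor, by 0.17 and 0.18 at 1 day.

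Upstream sensors were measured for 14 of 17, and 0 passed. At 6 h, 1 day and 4 days, 8, 7 and 9 were above 0 (52%, 50.6% and 56.1% of all genes). Sting1, the adaptor of cytosolic DNA sensing, had 7.86, 7.86 and 7.89 in celastrol arrays and 7.57, 7.60, 7.54 and 7.70 in DMSO arrays at 4 days. The Sting1 groups did not overlap, as for 4.03% of all genes in that direction. The difference of 0.27 ± 0.061 (SE) had an adjusted p of 0.1889 in limma. Tlr7, an endosomal receptor of single-stranded RNA, had 6.93, 6.86 and 6.70 in celastrol arrays and 6.51, 6.35, 6.62 and 6.56 in DMSO arrays at 4 days, a difference of 0.32. Tlr4, the endotoxin receptor, was higher by 0.22 at 4 days, and Myd88, an adaptor of these receptors, by 0.12 at 6 h.

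A longer list of 81 other interferon-stimulated genes, of which 65 were measured, gave 0 calls, with 32, 43 and 30 above 0 at 6 h, 1 day and 4 days (52%, 50.6% and 56.1% of all genes). Oas1a, an oligoadenylate synthetase, had 7.56, 7.63 and 7.41 in celastrol arrays and 7.13, 7.18, 7.30 and 6.92 in DMSO arrays at 4 days. The Oas1a groups did not overlap, as for 4.03% of all genes in that direction. The difference was 0.40 ± 0.095 (SE; adjusted p = 0.2349 in limma). Ifi30, a lysosomal thiol reductase, was higher by 0.24 and Nmi, a partner of Stat proteins, differed by -0.22 at 4 days, both without passing. At 4 days 5 of the 65 were higher and 1 lower at an unadjusted p under 0.05, against 2.75% and 1.27% of all genes.

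Members with and without an ISRE core were set side by side, and the difference between the sets was not tested. At 6 h the median change was 0.067 in 15 measured members with an ISRE core and 0.016 in 12 without. Of these, 11 and 9 were above 0 (52% of all genes), and the median of all genes was 0.0033. At 1 day the medians were -0.016 and 0.0086, with 6 and 8 above 0 (50.6%), against 0.0012 for all genes. At 4 days they were -0.045 and 0.017, with 6 and 8 above 0 (56.1%), against 0.0097. Slfn5, with 1 core, was above 0 at all 3 times, and Ifit3, with 2, was below 0 at all 3.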

How the data were processed

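The deposited values are log2 intensities, made by the authors with RMA per the submitters' processing notes. RMA subtracts a background estimate, equalizes the distributions of arrays by quantiles and combines probes into probe sets, and the sources used here state neither its version nor the annotation. Values ran from 3.83 to 15.17, 0 columns belonged to other series, and 0 pairs of arrays were identical. Symbols came from the platform annotation, for 20228 of 23492 probe sets 1 symbol, for 1399 several and for 1865 none. Where a gene had several probe sets (809 genes), the one with the highest overall mean stood for it, and no pseudocount or filter on level was applied.

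One model with 6 group means was fitted to the 22 arrays with limma 3.58.1 in R 4.3.3 (residual degrees of freedom 16, prior 4.74, and a median residual SD of 0.0966). Tests were two-sided with Benjamini-Hochberg adjustment over all 18704 genes. Exact permutations exchanged labels within a time. The arrays per group limit the precision.

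The members, lists and tests were chosen with earlier results of these data known. Values in every array are given for members called and for up to 4 of each role group with the smallest p over the 3 times; of each pathway list up to 4 genes. Other genes were named after their values were seen. Marker sums add linear intensities. Coordinates and sequences are of RefSeq GRCm38.p6. Alternatives covered filters, probe set choice, scaling, variance priors, array weights, the groups fitted, the replicate block and leaving out arrays. Figures used matplotlib 3.10.9 in Python 3.11.15.

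Tested on simulated data of 18704 genes and the same groups, the fit behaved as follows. The noise was normal and independent, and a changed gene had the same change of 0.25, 0.5 or 1, in either direction, at every time. True log2 changes of 0.25 were recovered in 44.2% of genes at 6 h, 34.6% at 1 day, 32.8% at 4 days and 82.1% on the average. Changes of 0.5 were recovered in 89%, 88.7%, 88.7% and 99.4%. More genes were changed than were called in these data, which eases the adjusted threshold. An equal change at every time favours the average. The shares can therefore overstate recovery in these data.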

Additional observations from a re-analysis of the deposited data

Results flagged for a closer look

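In 5 of the 132 groups of 4 arrays tested, 1 array lay far from the other 3 for a member, where chance gives about 6.6 (1 in 20). Ifit1 was high in celastrol 6 h replicate 1, at 8.22 against 7.96 to 7.99 in the other 3. Oas2 was high in DMSO 1 day replicate 1, at 7.65 against 7.34 to 7.39. Ifit3 was high in DMSO 6 h replicate 2, at 9.11 against 8.96 to 8.98. Ifitm2 was high in DMSO 1 day replicate 3, at 10.14 against 9.76 to 9.83. Bst2 was low in DMSO 6 h replicate 2, at 7.85 against 8.13 to 8.18. The celastrol effect differed between times for 0 members at an adjusted p under 0.05 in limma.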

How the results depend on the processing

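Of 680 counts of members called and member medians recomputed under 34 alternatives, 22 of which left out 1 array, 666 stayed close to the reported value, a count within 1.5 times and a median within 0.0573, the SD of the members' median between replicate arrays. That tolerance is wider than most medians, and 16 of 340 medians took the other sign. At an unadjusted p under 0.05, the count of higher members when 1 array was left out was 0 to 6 at 6 h, 1 to 2 at 1 day, 2 to 4 at 4 days and 1 to 6 on the average, and that of lower members 0 to 1, 1 to 2, 0 to 3 and 0 to 3. The members' median on the average of the 3 times was -0.00319 to 0.0205 in those fits. In tests of single members, 10727 of 10740 member values stayed on the same side of the threshold. The count of members called on the average of the 3 times was 1 as reported and 0 under both filters (9 members tested, without Slfn5), quantile normalization again, the replicate block and, chosen after seeing the data, without the 2 least typical arrays (celastrol 1 day replicate 2 and DMSO 1 day replicate 1). It was 0 to 1 when 1 array was left out. The adjusted p of Slfn5 was 0.0884 with quantile normalization, 0.0764 with the block and 0.0552 without those 2 arrays, in a range of 0.00807 to 0.0884 over 32 alternatives. At 1 day array weights gave 5 members (Irf9, Ifih1, Ddx58, Oas2 and Slfn2), among 1956 genes in all against 1 as reported; the weights did not converge, and celastrol 1 day replicate 3 received 45.4 against 0.295 to 1.68 for the others. The members' median for DMSO at 4 days minus 6 h was -0.0523 under both filters, which keep 9 members, against 0.041 as reported. For the celastrol effect at 4 days minus 1 day it was -0.0335 to 0.0798 when 1 array was left out, lowest without celastrol 4 days replicate 2, against 0.027 as reported. The genes called over all genes ranged from 0 to 13 at 4 days and from 0 to 18 on the average. Of 10 same-numbered pairs of celastrol and DMSO arrays, 1 correlated above 0.1 (range -0.43 to 0.388). With 3 or 4 arrays per group, this cannot show whether the replicate numbers pair the samples. The cause of each of these differences was not tested.

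With 3 or 4 arrays per group, a change of 0.25 at 1 time was recovered less often than not in the simulated data. In the measured data, 22 of 33 members are below the array median on every array.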
